A study of Drosophila melanogaster with 34 samples.

Results

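The comparison described here is between single Drosophila melanogaster embryos of 1 genotype, CRY2-ZLD with His2AvRFP, that were either lit with blue light through nuclear cycles (NC) 13 to 14 or kept without light. Both groups hold 4 embryos, so 8 of the 34 sequenced libraries enter it, and they were chosen by their group labels alone. In the CRY2-ZLD line the transcription factor Zelda carries the plant photoreceptor CRY2, and the study's title and labels describe blue light as the means of inactivating Zelda. Lit embryos received 488 nm light on an epifluorescence microscope, and every embryo of the series was taken for RNA 30 min into NC14. All stocks were grown at 25 °C. The histone marker His2AvRFP, imaged briefly at 587 nm to stage the embryos, was present in the lit embryos, the unlit embryos and the wild-type embryos alike. Besides these, 4 wild-type embryos (His2AvRFP without CRY2-ZLD) lit in NC13-14, and 3 CRY2-ZLD embryos lit in NC10-14, serve below as points of reference. The series also holds CRY2-ZLD and wild-type groups lit in NC10-12 and NC14, and a wild-type group lit in NC10-14. A wild-type embryo without light is not among the groups, so in the comparison of lit with unlit embryos the effect of light and the effect of losing Zelda cannot be told apart; values against lit wild type are given beside it.

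Zelda binds CAGGTAG-related sites in early enhancers and promoters, where it opens chromatin and allows the first wave of zygotic transcription. Embryos without maternal Zelda fail to activate many blastoderm genes, among them genes for cellularization, sex determination and patterning, and clear some maternal RNAs late. NC13 and early NC14 span the period in which zygotic transcription becomes widespread, the cell cycle lengthens and cell membranes form around the nuclei, and the light window examined here covers that period.

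Library depth ranged from 13846445 to 29102486 counts over the 8 embryos. The first principal component of the 8 libraries held 53.4% of the variance and separated the 4 lit from the 4 unlit embryos, and the second held 12.5%. The libraries fall into 2 ranges of sample-sheet numbers, with replicates 1 and 2 of each group in the first and replicates 3 and 4 in the second. The share of counts from the mitochondrial large ribosomal RNA was 6.404% to 7.77% in the first range and 0.580% to 3.07% in the second. Each range holds 2 embryos of both groups. The labels do not say whether the ranges are separate preparations. One lit library, replicate 4, had 0.377% of its counts on nuclear ribosomal RNA genes. The labels do not say that replicates come from separate crosses. The p-values measure the spread between single embryos within groups, estimated over all 34 libraries and not over these 8 alone.

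Levels are given in CPM, counts scaled to library size after TMM normalisation; means carry ± SD over the 4 embryos of a group and log2 changes carry ± SE. The zld transcript itself was found at 400.0, 446, 584 and 735 CPM in the unlit embryos and 938, 666, 511 and 550.4 CPM in the lit embryos. These ranges overlap, and the difference did not pass the test (log2 change 0.30 ± 0.27, edgeR adjusted p = 0.566). The light acts on the fused protein, so this value checks only that the transcript was present in both groups. His2Av, the histone variant whose tagged form marks the nuclei, likewise did not pass (from 2952 ± 454 to 2629 ± 412 CPM, log2 change -0.17 ± 0.18, edgeR adjusted p = 0.654). Blastoderm markers were present in the unlit embryos at the levels given for eve, ftz, sna, twi, zen and tll below.

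Light in NC13-14 was accompanied by lower levels of 610 genes and higher levels of 635 genes, of 9519 tested (edgeR's quasi-likelihood test, Benjamini-Hochberg adjusted p under 0.05). These are 6.41% and 6.67% of the genes tested, the shares beside which the counts of list members below are to be read. The decreases were the larger changes. Their median size was 2.1 on the log2 scale, with 192 genes more than 8-fold lower and 51 more than 32-fold lower. The increases had a median size of 1.30, with 90 genes more than 8-fold and 31 more than 32-fold higher. The lit and unlit embryos did not overlap in 579 of the lowered genes and in 564 of the raised genes, where 13.5% of all tested genes were lower and 12.7% higher without overlap. The lower count moved by more than 1.5 times without lit replicate 1 (395). The higher count did so without lit replicate 1 (358), unlit replicate 3 (333) and unlit replicate 4 (385).

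**Figure D1:**
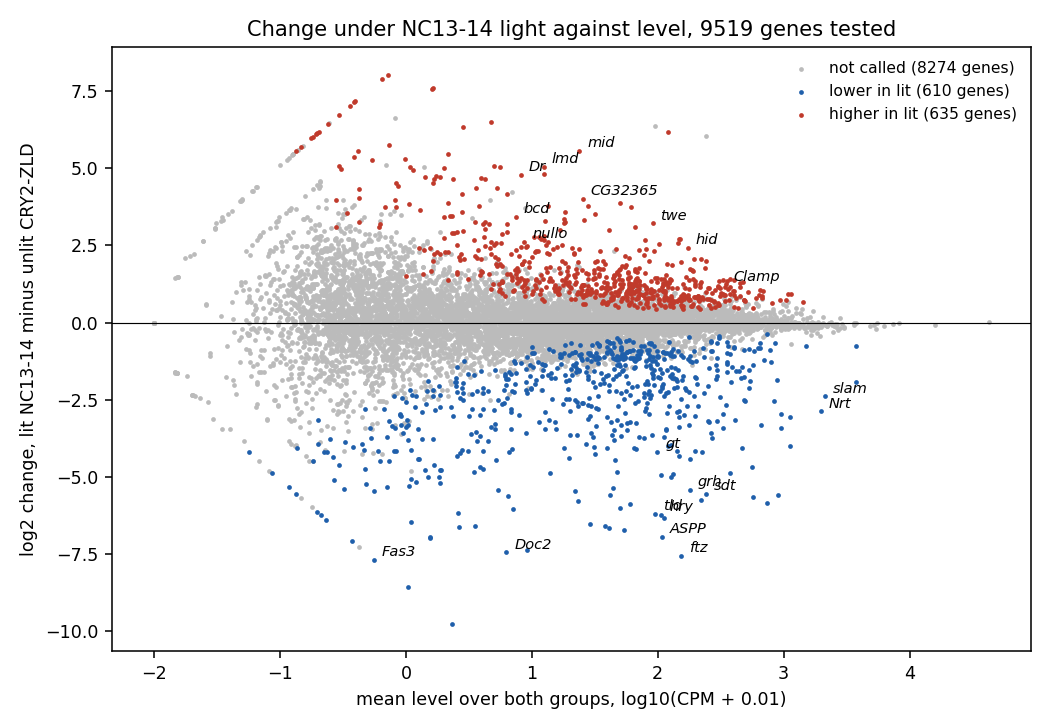
Each point is 1 of the 9519 genes tested, with the mean level over both groups on the x axis (log10 of CPM + 0.01) and the log2 change of lit NC13-14 against unlit CRY2-ZLD embryos on the y axis. Blue points are the 610 genes lower in lit embryos, which reach further from 0 at intermediate and high levels than the 635 genes higher in lit embryos, in red.

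Within the first range of sample-sheet numbers, with 2 embryos against 2, 188 genes were lower and 69 higher, and within the second 379 and 383. Of the 99 genes named by rule that passed in all 8 embryos, 37 did not pass within the first range and 20 did not within the second. All 610 lowered genes had a negative change in both ranges, and 634 of the 635 raised genes a positive one. The same 8 embryos gave these calls, so agreement in sign was largely set in advance and is not a replication. A test of whether the change differed between the ranges called 0 genes at an adjusted p under 0.05 (edgeR), with 415 genes, or 4.36% of those tested, at an unadjusted p under 0.05.

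Genes of cellularization, which build the membranes of NC14, were mostly lower after light. Of the 7 members tested 6 were lower and 1 higher, with a median log2 change of -2.28 against 0.02 over all genes tested. The cell adhesion gene Nrt (neurotactin, chr3L:16766072-16777465, plus strand, dm6) was found at 3456, 3542, 3683 and 3287 CPM in the unlit embryos and 454, 621, 440.0 and 385 CPM in the lit embryos. The lowest unlit embryo held 5.29 times the level of the highest lit embryo, and the log2 change was -2.88 ± 0.22 (edgeR adjusted p = 7.57e-11). The furrow gene slam (slow as molasses, chr2L:6372388-6377284, plus strand) was found at 4536, 4929, 2407 and 2441 CPM in the unlit embryos and 710.4, 757, 580.4 and 678 CPM in the lit embryos. The groups did not overlap (log2 change -2.39 ± 0.37, edgeR adjusted p = 2.44e-05), and unlit replicates 1 and 2 were above replicates 3 and 4.

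The actomyosin regulators dunk and bnk (bottleneck) gave 439.7, 368, 220.1 and 258 CPM unlit and 27.2, 27.3, 28.3 and 46.1 CPM lit, and 288, 232, 146 and 111 CPM unlit and 42.3, 28.3, 16.01 and 73.2 CPM lit, respectively. Neither gene's groups overlapped, and the log2 changes were -3.32 ± 0.46, edgeR adjusted p = 6.21e-06, and -2.28 ± 0.61, edgeR adjusted p = 0.0111. The nuclear shape gene kuk (kugelkern), which is also supplied maternally, had the smallest log2 change of the 6, from 4706 ± 957 to 2778 ± 449.6 CPM (log2 change -0.76 ± 0.17, edgeR adjusted p = 0.00218; adjusted p = 0.120 by edgeR with scaling on ribosomal protein genes). The lipid droplet transport gene halo fell from 793 ± 218 to 276 ± 81.9 CPM (log2 change -1.52 ± 0.42, edgeR adjusted p = 0.0138). Without lit replicate 1 halo's adjusted p was 0.0544 (edgeR). The exception was nullo, a furrow stabilising gene that wild-type embryos have largely turned off by mid-NC14, with 4.61, 2.44, 1.45 and 1.21 CPM in the unlit embryos and 26.7, 13.9, 8.59 and 10.9 CPM in the lit embryos. All lit embryos were above all unlit embryos (log2 change 2.61 ± 0.73, edgeR adjusted p = 0.0146), and the adjusted p was 0.0678, 0.0616 and 0.0566 without lit replicate 1, unlit replicate 3 and unlit replicate 4. Sry-alpha, the remaining gene of the list, did not pass the filter on low counts and was not tested.

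**Figure D2:**
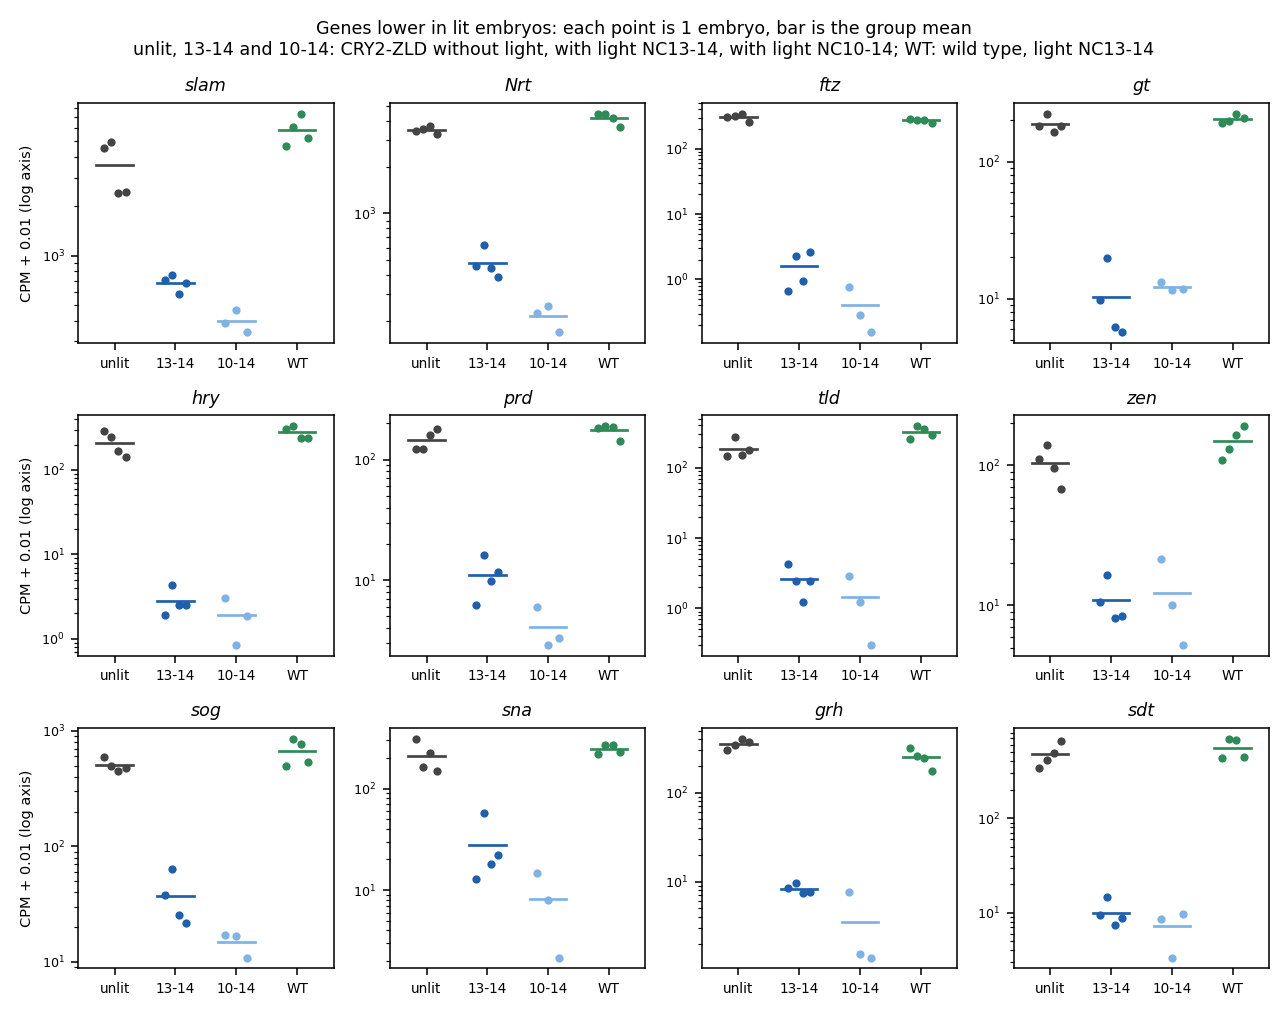
Levels (CPM) of 12 genes lower in lit NC13-14 than in unlit embryos, plus 0.01 and on a log axis, with 1 point per embryo and a bar at the group mean, for unlit CRY2-ZLD, CRY2-ZLD lit in NC13-14, CRY2-ZLD lit in NC10-14 and wild type lit in NC13-14. In all 12 panels the lit NC13-14 embryos sit below every unlit embryo, and the wild-type embryos lie in or near the unlit range.

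Among 13 regulators of the blastoderm cell cycle, 3 were lower (23.1%) and 2 higher (15.4%), against 6.41% and 6.67% of all genes tested. The interphase brake Z600 (frühstart), an inhibitor of cyclin-dependent kinase, fell from 709 ± 347 to 205 ± 32.6 CPM (log2 change -1.79 ± 0.38, edgeR adjusted p = 0.00165). CycE, which drives S phase, fell from 527 ± 82.9 to 98.8 ± 34.2 CPM (log2 change -2.41 ± 0.31, edgeR adjusted p = 1.77e-06). The third lowered member was trbl (tribbles), an inhibitor of the mitotic phosphatase String, at a log2 change of -1.27 ± 0.33, edgeR adjusted p = 0.00873. The raised members were dap (dacapo), the CycE inhibitor, from 7.64 ± 3.41 to 29.2 ± 8.10 CPM (log2 change 1.94 ± 0.41, edgeR adjusted p = 0.00163), and twe (twine), the maternal Cdc25 phosphatase whose loss marks the end of the rapid cycles. For twe the embryos gave 32.5, 23.03, 7.85 and 7.45 CPM in the unlit embryos and 201, 123, 170.2 and 165 CPM in the lit embryos. The lowest lit embryo held 3.77 times the level of the highest unlit one (log2 change 3.21 ± 0.59, edgeR adjusted p = 0.000323). The zygotic Cdc25 gene stg did not pass (log2 change 0.06 ± 0.53, edgeR adjusted p = 0.968).

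The pair-rule genes, which divide the trunk into segments, were lower in 9 of 10 tested members and higher in 1, with a median log2 change of -3.03. The homeobox gene ftz (chr3R:6864324-6866244, plus strand) had the largest decrease among genes of at least 10 CPM, with 302, 317, 345 and 253 CPM in the unlit embryos and 0.651, 2.26, 0.923 and 2.61 CPM in the lit embryos. The lowest unlit embryo held 96.8 times the level of the highest lit embryo (log2 change -7.56 ± 0.82, edgeR adjusted p = 8.73e-08). The repressor gene hry (hairy, chr3L:8675759-8679253, plus strand) showed 290.1, 243, 168 and 142 CPM in the unlit embryos and 1.91, 4.30, 2.52 and 2.53 CPM in the lit embryos, again with no overlap (log2 change -6.22 ± 0.61, edgeR adjusted p = 1.73e-08).

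The paired box gene prd and the homeobox gene eve gave 122, 123, 159 and 180.2 CPM unlit and 6.25, 16.3, 9.88 and 11.7 CPM lit, and 107, 113, 82.3 and 84.1 CPM unlit and 9.03, 15.4, 14.0 and 11.9 CPM lit. Both fell in every lit embryo below every unlit one, by log2 changes of -3.73 ± 0.56, edgeR adjusted p = 1.85e-05, and -2.94 ± 0.41, edgeR adjusted p = 6.32e-06. The Runt domain gene run, also an X-linked counting gene, fell from 142 ± 26.2 to 23.1 ± 11.4 CPM (log2 change -2.62 ± 0.41, edgeR adjusted p = 3.80e-05). The remaining lowered members were opa (-4.19), odd (-3.06), slp2 (-3.0) and slp1 (-2.72), given as log2 changes. The raised member was ftz-f1, the nuclear receptor that acts with Ftz and is supplied maternally (log2 change 2.69 ± 0.55, edgeR adjusted p = 0.000947).

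The gap genes, which lie above the pair-rule genes in the hierarchy, were less uniform. Of 14 trunk and head gap genes 5 were lower, none was higher and 9 did not pass, with a median log2 change of -0.85. The leucine zipper repressor gt (giant, chrX:2427113-2428967, minus strand) was found at 182, 222, 164 and 182 CPM in the unlit embryos and 9.81, 19.7, 6.19 and 5.67 CPM in the lit embryos. The lowest unlit embryo held 8.34 times the level of the highest lit one (log2 change -4.18 ± 0.41, edgeR adjusted p = 1.66e-08). The terminal gap genes tll (tailless) and hkb (huckebein) fell from 87.1 ± 25.99 to 4.03 ± 3.35 CPM and from 79.7 ± 19.8 to 6.38 ± 2.64 CPM, with log2 changes of -4.44 ± 0.69, edgeR adjusted p = 2.87e-05, and -3.65 ± 0.71, edgeR adjusted p = 0.000628. The forkhead gene slp1 fell from 51.4 ± 30.1 to 7.82 ± 5.69 CPM.

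The trunk gap gene Kr (Krüppel) was at 349, 365, 203 and 149 CPM in the unlit embryos and 79.8, 163, 117 and 81.2 CPM in the lit embryos, where lit replicate 2 overlapped the unlit range. Its log2 change was -1.28 ± 0.34, edgeR adjusted p = 0.0104, and the adjusted p was 0.0516 without lit replicate 1 and 0.0807 with scaling on ribosomal protein genes. The values of kni (knirps) were 250, 170.2, 180.2 and 105 CPM in the unlit embryos and 34.8, 129.6, 64.4 and 92.6 CPM in the lit embryos (log2 change -1.13 ± 0.40, edgeR adjusted p = 0.0597). The adjusted p of kni was 0.0244 without lit replicate 2 and 0.0450 without unlit replicate 4, and 0.0352 with DESeq2, 0.0446 with limma-voom and 0.0408 when only the 8 libraries were fitted. For hb (hunchback), which has maternal and zygotic RNA, they were 163, 289.7, 219 and 243 CPM in the unlit embryos and 271, 461, 192 and 392 CPM in the lit embryos, and the groups overlapped (log2 change 0.52 ± 0.51, edgeR adjusted p = 0.592). The head gap genes oc, btd, ems and D had log2 changes of 0.01, 0.12, -0.28 and -0.32 and did not pass.

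Of 10 segment polarity genes, the tier that follows, 2 were lower and 3 higher (1 higher among genes with a mean of at least 5 CPM over all 34 libraries). The Wingless inhibitor gene nkd (naked cuticle) gave 185, 213, 297 and 295 CPM in the unlit embryos and 4.30, 15.3, 3.94 and 7.30 CPM in the lit embryos. That is a log2 change of -5.01 ± 0.65, edgeR adjusted p = 1.97e-06. The Hedgehog receptor gene ptc (patched) fell from 610.2 ± 52.9 to 159 ± 59.9 CPM (log2 change -1.94 ± 0.42, edgeR adjusted p = 0.00202). The T-box gene mid (midline, chr2L:5461639-5467610, plus strand) had the largest increase among genes of at least 10 CPM in the lit group whose groups did not overlap, with 0.222, 0.687, 1.24 and 1.88 CPM in the unlit embryos and 43.7, 24.8, 62.8 and 54.8 CPM in the lit embryos. The lowest lit embryo held 13.2 times the level of the highest unlit one (log2 change 5.56 ± 0.91, edgeR adjusted p = 7.10e-05). The homeobox gene en (engrailed) rose at a low level, from 0.269 ± 0.135 to 4.03 ± 1.63 CPM (log2 change 3.89 ± 1.03, edgeR adjusted p = 0.0106), and gsb (gooseberry) had a log2 change of 2.21 ± 0.72, edgeR adjusted p = 0.0387. For wg (wingless) and hh (hedgehog) the log2 changes were -0.01 ± 0.41, edgeR adjusted p = 0.994, and 1.58 ± 0.82, edgeR adjusted p = 0.233.

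Of 8 Hox genes, which set segment identity, 4 were lower and 1 higher, all at low levels for this stage. None was higher among genes with a mean of at least 5 CPM over all 34 libraries, a filter not set on the lit embryos. The trunk gene Ubx (Ultrabithorax) gave 6.52, 5.73, 7.48 and 0.537 CPM in the unlit embryos and 0.0434, 0.113, 0.0616 and 0.0408 CPM in the lit embryos, and the lit embryos held a few counts each (log2 change -6.17 ± 0.85, edgeR adjusted p = 8.42e-06). The head gene Dfd (Deformed) fell from 12.4 ± 4.89 to 0.680 ± 0.0766 CPM and the abdominal gene abd-A fell from 8.43 ± 3.77 to 0.579 ± 0.307 CPM, with log2 changes of -4.18 ± 0.50, edgeR adjusted p = 4.29e-07, and -3.83 ± 0.71, edgeR adjusted p = 0.00035. The fourth lowered gene, pb (proboscipedia), had a log2 change of -3.93 ± 1.22, edgeR adjusted p = 0.0305. The head gene lab (labial) moved the other way, with 0.532, 0.458, 0.207 and 0.873 CPM in the unlit embryos and 8.07, 6.11, 5.94 and 8.24 CPM in the lit embryos and no overlap (log2 change 3.79 ± 0.78, edgeR adjusted p = 0.00116). For Antp, Scr and Abd-B the log2 changes were -0.48, 0.49 and 1.28, and none passed.

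Genes of the termini and gut primordia were lower in 5 of 6 members tested, with a median log2 change of -3.65. Beside tll and hkb these were the hindgut T-box gene byn (brachyenteron), the gut forkhead gene fkh and the GATA gene srp (serpent). The values of byn were 22.6, 31.5, 91.6 and 94.1 CPM in the unlit embryos and 2.56, 4.60, 3.11 and 2.12 CPM in the lit embryos, with unlit replicates 3 and 4 above 1 and 2 (log2 change -4.27 ± 0.79, edgeR adjusted p = 0.00031). Those of fkh were 68.8, 56.9, 122 and 131 CPM in the unlit embryos and 12.8, 7.62, 5.17 and 4.37 CPM in the lit embryos, with no overlap (log2 change -3.66 ± 0.86, edgeR adjusted p = 0.00379). The log2 change of srp was -2.23 ± 0.60, edgeR adjusted p = 0.0116, and that of the sixth gene, bowl, was 0.35 ± 0.55, edgeR adjusted p = 0.776.

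In the dorsal ectoderm, where graded BMP signalling patterns the tissue, 6 of 16 members were lower, none was higher (1 with limma-voom and 2 when only the 8 libraries were fitted) and the median log2 change was -0.94. The secreted protease gene tld (tolloid, chr3R:24749731-24753510, plus strand), which frees BMP ligand by cleaving Sog, had 145, 276, 150.1 and 179 CPM in the unlit embryos and 4.25, 2.45, 1.23 and 2.41 CPM in the lit embryos. Its lowest unlit embryo held 34 times the level of its highest lit embryo (log2 change -6.19 ± 0.52, edgeR adjusted p = 7.78e-10). The ligand gene dpp (decapentaplegic) fell from 70.1 ± 6.94 to 8.34 ± 2.54 CPM (log2 change -3.07 ± 0.39, edgeR adjusted p = 1.16e-06) and the type I receptor gene tkv (thickveins) fell from 176 ± 39.2 to 40.9 ± 6.72 CPM (log2 change -2.11 ± 0.28, edgeR adjusted p = 3.35e-06). The homeobox gene zen (chr3R:6752864-6754194, minus strand) was found at 111, 140.2, 95.9 and 68.2 CPM in the unlit embryos and 10.5, 16.5, 8.07 and 8.37 CPM in the lit embryos (log2 change -3.26 ± 0.53, edgeR adjusted p = 6.56e-05). The other lowered members were the peptidase gene Ance, from 147 ± 34.6 to 27.1 ± 11.5 CPM (log2 change -2.44 ± 0.48, edgeR adjusted p = 0.000605), and the BMP transport gene tsg (log2 change -1.67 ± 0.33, edgeR adjusted p = 0.000737). The second ligand gene scw (screw) and the transducer gene Mad had log2 changes of 0.96 ± 0.49, edgeR adjusted p = 0.225, and 0.56 ± 0.21, edgeR adjusted p = 0.0767.

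Amnioserosa genes, which mark the dorsal-most tissue, were lower in 6 of 9 members and higher in 1, with a median log2 change of -2.44; zen, Ance and Kr belong to this list too. The T-box gene Doc2 (Dorsocross2) gave 9.45, 12.4, 19.5 and 8.46 CPM in the unlit embryos and 0.0868, 0.151, 0.0308 and 0 CPM in the lit embryos, so the lit embryos held almost no counts of it (log2 change -7.45 ± 0.96, edgeR adjusted p = 1.76e-06). Its neighbour Doc1 fell from 42.4 ± 18.5 to 3.44 ± 0.995 CPM (log2 change -3.63 ± 0.67, edgeR adjusted p = 0.000303) and Doc3 had a log2 change of -3.23 ± 0.67, edgeR adjusted p = 0.00119. The zinc finger gene peb (pebbled) was the raised member (log2 change 3.22 ± 0.72, edgeR adjusted p = 0.00237). RNA of a whole embryo cannot tell fewer cells of a type from less RNA in each cell.

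In the neurogenic ectoderm and midline 4 of 14 members were lower and none was higher, with a median log2 change of -0.78, and 7 were lower when only the 8 libraries were fitted. The BMP antagonist gene sog (short gastrulation, chrX:15603283-15633434, minus strand) showed 589, 493, 449 and 476 CPM in the unlit embryos and 37.8, 64.3, 25.6 and 21.8 CPM in the lit embryos. The closest lit and unlit embryos were 6.98-fold apart (log2 change -3.75 ± 0.40, edgeR adjusted p = 7.36e-08). The Sox gene SoxN, a neural determinant, gave 153, 161, 205 and 149.9 CPM in the unlit embryos and 9.64, 21.3, 12.2 and 10.4 CPM in the lit embryos, also without overlap (log2 change -3.65 ± 0.48, edgeR adjusted p = 2.64e-06). The FGF ligand gene ths (thisbe) fell from 59.1 ± 18.9 to 3.58 ± 1.52 CPM and the EGF receptor ligand gene vn (vein) fell from 22.5 ± 6.15 to 3.02 ± 0.811 CPM, with log2 changes of -4.04 ± 0.63, edgeR adjusted p = 3.13e-05, and -2.89 ± 0.46, edgeR adjusted p = 4.59e-05. The midline gene sim and the neural column genes vnd and ind had log2 changes of 1.58, 0.01 and -0.62 and did not pass.

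Mesoderm and gastrulation genes were lower in 6 of 16 members and higher in none (1 without unlit replicate 4), with a median log2 change of -1.01. The zinc finger gene sna (snail, chr2L:15476593-15478260, minus strand) was at 308, 162, 222 and 148 CPM in the unlit embryos and 12.9, 56.99, 18.01 and 22.1 CPM in the lit embryos. Lit replicate 2 was the highest of its group and still below every unlit embryo (log2 change -2.93 ± 0.70, edgeR adjusted p = 0.00414). Its activator twi (twist) was at 351, 184, 303 and 234 CPM in the unlit embryos and 91.1, 140.2, 88.1 and 95.2 CPM in the lit embryos. The groups did not overlap but the difference missed the threshold (log2 change -1.37 ± 0.49, edgeR adjusted p = 0.0599). It passed with DESeq2 (adjusted p = 0.0303) and by edgeR when only the 8 libraries were fitted (adjusted p = 0.00141). The guidance gene NetA (Netrin-A) fell from 56.4 ± 28.1 to 4.32 ± 2.12 CPM, the cytochrome P450 gene Cyp310a1 from 85.5 ± 26.2 to 9.63 ± 5.16 CPM and the insulin-like gene Ilp4 from 189 ± 75.6 to 36.6 ± 11.8 CPM, with log2 changes of -3.71 ± 0.64, edgeR adjusted p = 0.000128, of -3.15 ± 0.75, edgeR adjusted p = 0.00463, and of -2.37 ± 0.60, edgeR adjusted p = 0.00773. The apical constriction genes fog and T48 had log2 changes of 0.74 ± 0.38, edgeR adjusted p = 0.232, and -0.19 ± 0.56, edgeR adjusted p = 0.899, and did not pass.

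Sex determination in the fly counts X chromosomes through X-linked signal genes that turn on Sxl in females. Of 9 genes of this system 5 were lower and none was higher, with a median log2 change of -1.74. The signal gene upd1 (unpaired 1, chrX:18305354-18309291, minus strand), also the main JAK/STAT ligand, had 101, 101, 63.7 and 57.3 CPM in the unlit embryos and 0.564, 1.92, 0.339 and 0.326 CPM in the lit embryos. The lit embryos held about 1 CPM or less apart from replicate 2 (log2 change -6.67 ± 0.73, edgeR adjusted p = 9.39e-08). The signal gene sisA had a log2 change of -2.77 ± 0.56, edgeR adjusted p = 0.000947. The autosomal repressor genes dpn (deadpan) and emc (extramacrochaetae) fell as well, from 33.2 ± 5.40 to 6.03 ± 1.55 CPM and from 244 ± 49.9 to 72.8 ± 17.3 CPM, with log2 changes of -2.46 ± 0.37, edgeR adjusted p = 2.05e-05, and -1.74 ± 0.28, edgeR adjusted p = 5.15e-05. The signal gene sc (scute) was low in both groups, with 1.597, 1.30, 1.94 and 4.97 CPM in the unlit embryos and 1.56, 1.43, 0.739 and 1.51 CPM in the lit embryos (log2 change -0.89 ± 0.63, edgeR adjusted p = 0.418).

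Sxl itself was at 96.3, 98.8, 185 and 1071 CPM in the unlit embryos and 150.4, 304, 98.1 and 99.7 CPM in the lit embryos, so that unlit replicate 4 stood far above the other 7 embryos. The labels do not give the sex of an embryo. The log2 change was -1.15 ± 0.89, edgeR adjusted p = 0.469, and 0.35 without unlit replicate 4 (edgeR adjusted p = 0.892). The dosage compensation gene msl-2, which Sxl represses, was at 302, 227, 249.6 and 55.0 CPM in the unlit embryos and 41.02, 83.4, 71.2 and 39.1 CPM in the lit embryos. The same unlit replicate was the lowest of its group (log2 change -1.83 ± 0.67, edgeR adjusted p = 0.0684; -2.16 with an edgeR adjusted p = 0.0415 without it, and adjusted p = 0.0118 when only the 8 libraries were fitted). The X-coating RNA gene lncRNA:roX1 fell in every lit embryo, with 722, 645, 409 and 639.9 CPM in the unlit embryos and 54.8, 125, 21.7 and 24.4 CPM in the lit embryos (log2 change -3.42 ± 0.45, edgeR adjusted p = 2.50e-06). Of the 8 dosage compensation genes tested, 1 was lower (2 when only the 8 libraries were fitted or without unlit replicate 4) and 1 higher. A single member is 12.5% of this list, where 6.41% of all genes tested were lower and 6.67% higher. The raised one was msl-1, from 108 ± 31.2 to 198 ± 52.3 CPM (log2 change 0.87 ± 0.29, edgeR adjusted p = 0.0467), whose adjusted p was between 0.0618 and 0.179 without lit replicate 1 or 4 or unlit replicate 2, 3 or 4. It was 0.0611 with limma-voom, 0.0666 with no filter on low counts and 0.0845 with scaling on ribosomal protein genes.

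Steroid genes held some of the largest decreases. Of 12 genes of ecdysone synthesis and response 4 were lower and 2 higher. The synthesis enzymes dib (disembodied) and phtm (phantom), both cytochrome P450 genes, were at 69.3, 61.3, 84.6 and 84.0 CPM unlit and 0.694, 1.09, 0.862 and 0.449 CPM lit, and at 48.5, 44.2, 55.0 and 79.7 CPM unlit and 0.608, 1.24, 0.431 and 0.163 CPM lit. Both lay near 1 CPM in lit embryos (log2 changes of -6.58 ± 0.75, edgeR adjusted p = 1.65e-07, and of -6.53 ± 0.69, edgeR adjusted p = 6.19e-08). Another P450 gene, spo (spook), fell from 201 ± 86.2 to 42.6 ± 15.9 CPM (log2 change -2.24 ± 0.41, edgeR adjusted p = 0.000317), and sad and sro had log2 changes of 0.25 ± 0.33, edgeR adjusted p = 0.726, and -2.11 ± 0.78, edgeR adjusted p = 0.0742. The ecdysone-regulated repressor gene Blimp-1 (chr3L:5630983-5652094, plus strand) gave 105, 72.8, 142 and 107 CPM in the unlit embryos and 0.521, 1.21, 1.48 and 0.775 CPM in the lit embryos (log2 change -6.72 ± 0.72, edgeR adjusted p = 7.28e-08). The raised members were the receptor gene EcR (log2 change 1.39 ± 0.26, edgeR adjusted p = 0.000448) and ftz-f1.

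Other strong decreases outside these lists were those of ASPP, Ac78C, FER and CG13653, named by the size of their change. ASPP (chr2R:21217856-21251150, minus strand), a conserved scaffold that acts with the kinase Csk, was at 194, 192, 261 and 211 CPM in the unlit embryos and 2.13, 2.11, 1.17 and 1.59 CPM in the lit embryos. The adenylyl cyclase gene Ac78C was at 265, 271, 157 and 192 CPM in the unlit embryos and 3.17, 3.58, 1.69 and 2.57 CPM in the lit embryos. The lowest unlit embryo held 90.4 times the ASPP level and 43.7 times the Ac78C level of the highest lit one (log2 changes -6.94 ± 0.54, edgeR adjusted p = 1.28e-10, and -6.33 ± 0.46, edgeR adjusted p = 3.41e-11). The tyrosine kinase gene FER fell from 98.5 ± 40.7 to 1.54 ± 0.897 CPM and the uncharacterised gene CG13653 fell from 18.1 ± 9.04 to 0.105 ± 0.0847 CPM (log2 changes -5.998 ± 0.65, edgeR adjusted p = 8.73e-08, and -7.38 ± 1.13, edgeR adjusted p = 2.45e-05).

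Notch pathway genes of the Bearded and E(spl) families were lower in 6 of 11 members and higher in 1 (2 without unlit replicate 2, with limma-voom or with the range of sample-sheet numbers as a term), with a median log2 change of -1.69. The Bearded genes Ocho and Brd gave 113, 74.7, 71.0 and 77.0 CPM unlit and 5.56, 9.58, 4.12 and 4.82 CPM lit, and 50.2, 61.1, 53.2 and 40.6 CPM unlit and 11.5, 6.68, 5.39 and 1.80 CPM lit, and neither overlapped (log2 changes -3.80 ± 0.39, edgeR adjusted p = 4.42e-08, and -3.02 ± 0.45, edgeR adjusted p = 1.94e-05). Tom and E(spl)m4-BFM of the same family fell from 449.5 ± 72.2 to 125 ± 34.5 CPM and from 31.5 ± 6.80 to 9.78 ± 2.87 CPM, with log2 changes of -1.84 ± 0.31, edgeR adjusted p = 0.000105, and -1.69 ± 0.28, edgeR adjusted p = 9.22e-05. The other lowered members were BobA (-3.11) and E(spl)m5-HLH (-2.51), and the raised one was E(spl)m7-HLH (1.74), given as log2 changes.

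In the JAK/STAT pathway 3 of 8 genes tested were lower and none was higher. The lowered genes were the ligand genes upd1 and upd2 and a feedback inhibitor. The receptor, kinase and transcription factor genes did not pass, and a further ligand gene, upd3, was not among the genes tested. Beside upd1, the ligand gene upd2 fell from 2.43 ± 0.927 to 0.112 ± 0.0795 CPM (log2 change -4.41 ± 1.06, edgeR adjusted p = 0.00484) and Socs36E, the inhibitor, from 177 ± 9.65 to 60.3 ± 15.4 CPM (log2 change -1.55 ± 0.37, edgeR adjusted p = 0.00429). The receptor gene dome, the kinase gene hop and the factor gene Stat92E had log2 changes of -0.18, 0.87 and 0.51. The gene hop was at 128, 80.4, 77.7 and 86.0 CPM in the unlit embryos and 222, 135, 94.4 and 226 CPM in the lit embryos (edgeR adjusted p = 0.0540). Its adjusted p was 0.0473, 0.0215 and 0.0317 without lit replicate 2, lit replicate 3 and unlit replicate 1, 0.0337 with DESeq2 and 0.0389 among genes of at least 5 CPM. Of 4 Toll receptor genes of germband extension 1 was lower and 1 higher (2 when only the 8 libraries were fitted, where Tl had an edgeR adjusted p of 0.00983). Tollo fell in every lit embryo, with 85.0, 126, 104 and 116 CPM in the unlit embryos and 6.90, 18.6, 15.3 and 5.10 CPM in the lit embryos (log2 change -3.23 ± 0.69, edgeR adjusted p = 0.0015). Toll-6 rose, with 3.37, 3.25, 6.57 and 5.84 CPM in the unlit embryos and 21.7, 23.05, 21.9 and 23.1 CPM in the lit embryos (log2 change 2.24 ± 0.44, edgeR adjusted p = 0.000717). Tl and Toll-7 had log2 changes of 0.65 ± 0.26, edgeR adjusted p = 0.101, and 1.39 ± 0.80, edgeR adjusted p = 0.292.

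The insulator genes of the Elba complex, which are expressed in the blastoderm, fell in 3 of 4 members. These were insv (from 509 ± 66.1 to 199.7 ± 18.2 CPM), Elba1 (from 663 ± 189 to 225 ± 67.4 CPM) and Elba2 (from 571 ± 127 to 211 ± 50.1 CPM), with log2 changes of -1.35 ± 0.17, edgeR adjusted p = 1.73e-06, of -1.56 ± 0.31, edgeR adjusted p = 0.000817, and of -1.44 ± 0.36, edgeR adjusted p = 0.00661. Elba3 was at 479.8, 319, 126 and 223 CPM in the unlit embryos and 224, 312, 226 and 325 CPM in the lit embryos and did not pass (log2 change -0.08 ± 0.38, edgeR adjusted p = 0.938).

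Among 11 genes of epithelial adhesion and polarity 4 were lower and none was higher. The Crumbs complex scaffold gene sdt (stardust, chrX:8178549-8240474, plus strand) was at 339.6, 416, 486 and 656 CPM in the unlit embryos and 9.46, 14.5, 7.39 and 8.81 CPM in the lit embryos. The closest lit and unlit embryos were 23.4-fold apart (log2 change -5.56 ± 0.49, edgeR adjusted p = 1.37e-09). Its partner gene crb (crumbs) fell from 848 ± 218 to 229 ± 50.1 CPM (log2 change -1.89 ± 0.35, edgeR adjusted p = 0.000359). The septate junction gene Fas3 (Fasciclin 3) had no count in the 4 lit libraries against 1.10 ± 0.185 CPM in the unlit embryos, at least 39-fold lower against a floor of 3 counts over the lit group (edgeR adjusted p = 0.000308). The E-cadherin gene shg fell from 1046 ± 84.6 to 664 ± 65.6 CPM (log2 change -0.66 ± 0.20, edgeR adjusted p = 0.0303). Its adjusted p was 0.0643, 0.0862, 0.0911 and 0.0550 without lit replicate 3, lit replicate 4, unlit replicate 3 and unlit replicate 4, and 0.251 with scaling on ribosomal protein genes. The catenin genes arm and alpha-Cat had log2 changes of -0.31 and 0.07.

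Of 9 activators of the early genome tested, zld among them, 1 was lower and 3 higher. The epithelial pioneer factor gene grh (grainy head, chr2R:17801132-17842820, plus strand) was at 303, 339, 402 and 369 CPM in the unlit embryos and 8.42, 9.54, 7.51 and 7.63 CPM in the lit embryos. All lit embryos were below every unlit one (log2 change -5.42 ± 0.42, edgeR adjusted p = 1.28e-10). Clamp, a GA-binding factor gene, was at 251, 232, 178 and 169 CPM in the unlit embryos and 496, 469.5, 421 and 569 CPM in the lit embryos, with all lit embryos above all unlit ones (log2 change 1.24 ± 0.23, edgeR adjusted p = 0.00043). The CBP acetyltransferase gene nej was at 829, 812, 657 and 861 CPM in the unlit embryos and 2076, 1539.6, 1239 and 1162 CPM in the lit embryos (log2 change 0.93 ± 0.29, edgeR adjusted p = 0.0289). The adjusted p of nej was 0.147, 0.0546, 0.102 and 0.0545 without lit replicate 1, unlit replicate 2, unlit replicate 3 and unlit replicate 4. The third raised gene is the maternal activator bcd. The GAGA factor gene Trl had a log2 change of 0.32 ± 0.36, edgeR adjusted p = 0.668, and the maternal activators Stat92E and dl had log2 changes of 0.51 and 0.66 and did not pass.

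Maternal RNAs, only some of which a wild-type embryo clears around this stage, were not lower in any of 15 members and were higher in 3. Their median log2 change was 0.33. The raised ones were twe, bcd (bicoid) and tor (torso). The anterior determinant bcd was at 1.95, 0.878, 0.248 and 2.01 CPM in the unlit embryos and 23.05, 8.52, 2.83 and 19.8 CPM in the lit embryos (log2 change 3.44 ± 1.08, edgeR adjusted p = 0.0313). Its adjusted p was 0.0933, 0.0730, 0.0809, 0.113 and 0.0562 without lit replicate 1, lit replicate 4, unlit replicate 2, unlit replicate 3 and unlit replicate 4, and 0.354 with limma-voom. The terminal receptor gene tor was at 48.6, 31.4, 22.4 and 19.2 CPM in the unlit embryos and 160.1, 82.7, 77.0 and 84.3 CPM in the lit embryos (log2 change 1.73 ± 0.45, edgeR adjusted p = 0.0084; edgeR adjusted p = 0.0518 without lit replicate 1). Only 1 member of the list, twe, was called without lit replicate 1. The RNA decay regulator smg (smaug) was at 130.0, 82.8, 75.4 and 75.01 CPM in the unlit embryos and 274, 103, 142 and 191 CPM in the lit embryos. It did not pass (log2 change 0.97 ± 0.50, edgeR adjusted p = 0.23; edgeR adjusted p = 0.0384 when only the 8 libraries were fitted). Wild-type groups had means of 283 CPM of twe and 106 CPM of bcd under NC10-14 light, and 28.6 and 4.48 CPM under NC13-14 light.

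**Figure D3:**
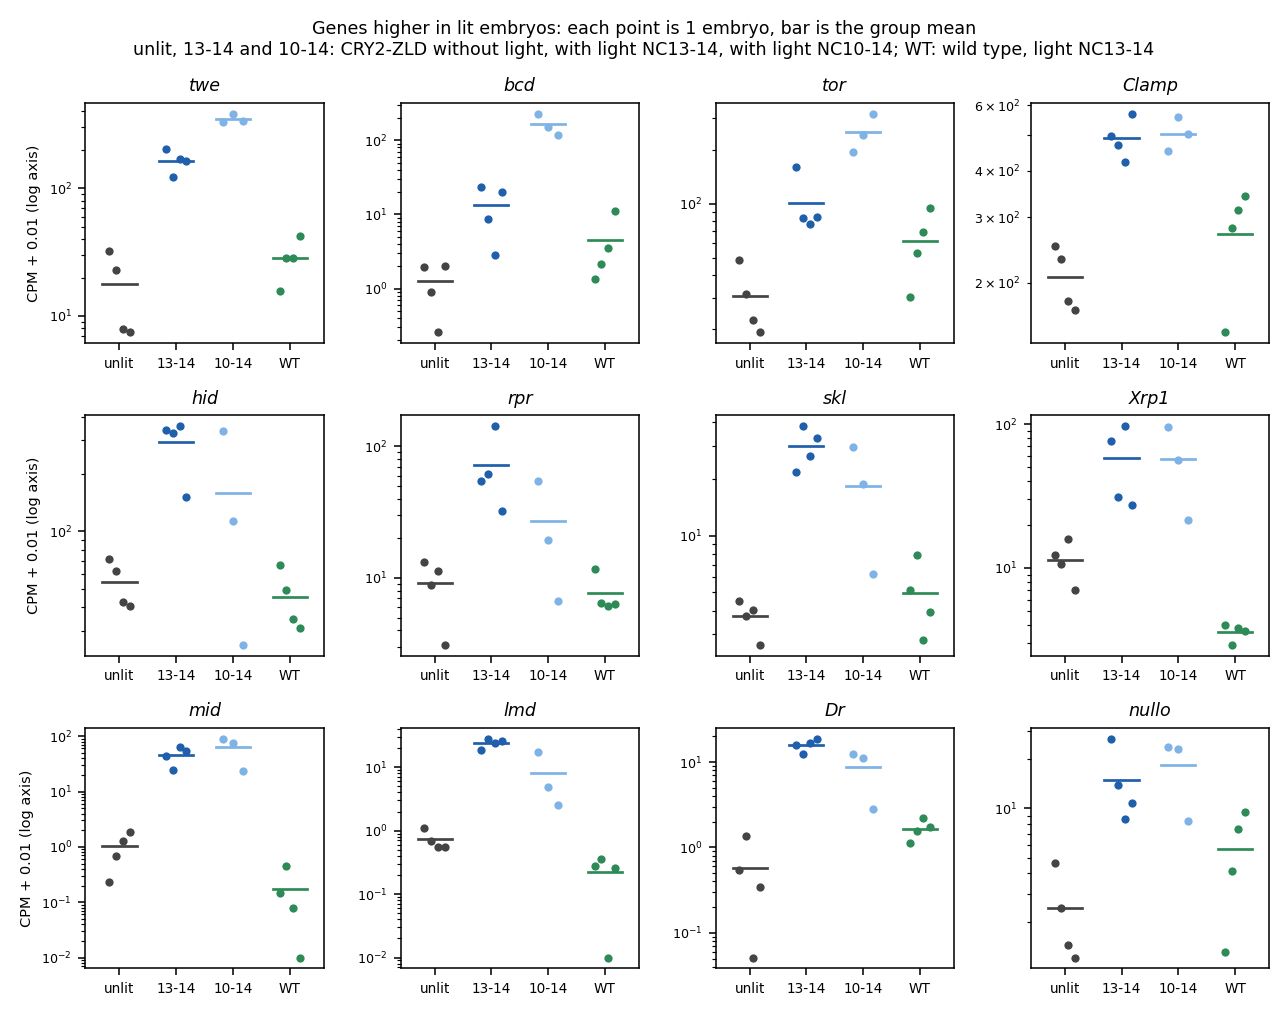
Levels (CPM) of 12 genes higher in lit NC13-14 than in unlit embryos, plus 0.01 and on a log axis, with 1 point per embryo and a bar at the group mean, in the 4 groups also shown for the lowered genes. The lit NC13-14 embryos lie above every unlit embryo in all 12 panels, with the widest separation for mid, lmd and Dr.

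Among the 10 largest increases beside mid, the muscle zinc finger gene lmd (lame duck, chr3R:23021222-23026713, minus strand) was at 1.11, 0.687, 0.537 and 0.537 CPM in the unlit embryos and 18.8, 27.8, 23.7 and 25.7 CPM in the lit embryos. The homeobox gene Dr (Drop) was at 0.532, 1.34, 0.0413 and 0.336 CPM in the unlit embryos and 15.8, 12.5, 16.5 and 18.7 CPM in the lit embryos. The lowest lit embryo held 16.9 times the lmd level and 9.34 times the Dr level of the highest unlit one (log2 changes 5.05 ± 0.85, edgeR adjusted p = 9.90e-05, and 4.78 ± 0.80, edgeR adjusted p = 9.12e-05). The homeobox gene Ptx1 rose from 0.332 ± 0.212 to 10.9 ± 1.63 CPM and the Notch ligand gene Ser (Serrate) from 0.495 ± 0.188 to 10.0 ± 3.43 CPM (log2 changes 5.06 ± 0.90, edgeR adjusted p = 0.000209, and 4.35 ± 0.98, edgeR adjusted p = 0.0027).

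The insulin-binding protein gene ImpL2 rose from 3.79 ± 1.08 to 52.2 ± 36.5 CPM and the formin gene Fhos from 6.34 ± 4.46 to 93.5 ± 42.5 CPM (log2 changes 3.78 ± 0.94, edgeR adjusted p = 0.0066, and 3.87 ± 0.73, edgeR adjusted p = 0.000389). The remaining genes among the 10 largest increases were SP1173, CG32365 and CG43693, with log2 changes of 4.16 ± 0.96, edgeR adjusted p = 0.00334, of 4.01 ± 0.72, edgeR adjusted p = 0.000228, and of 3.79 ± 1.17, edgeR adjusted p = 0.0287. CG43693 was at 0.488, 1.18, 1.69 and 3.96 CPM in the unlit embryos and 10.4, 11.2, 17.6 and 59.9 CPM in the lit embryos, where lit replicate 4 was far above the rest of its group. Its adjusted p was 0.129, 0.0811, 0.0759 and 0.0857 without lit replicate 4, unlit replicate 1, unlit replicate 2 and unlit replicate 3, and 0.0659 with limma-voom.

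Of 9 p53 and apoptosis genes tested 5 were higher and none was lower (1 when only the 8 libraries were fitted), with a median log2 change of 2.33. The death activators hid, rpr (reaper) and skl (sickle) neutralise the caspase inhibitor Diap1 and lie near each other on chromosome 3L. The values of hid (chr3L:18167745-18185641, minus strand) were 71.8, 62.1, 42.6 and 40.6 CPM in the unlit embryos and 339, 328, 356 and 151 CPM in the lit embryos, and lit replicate 4 was the lowest of its group (log2 change 2.43 ± 0.46, edgeR adjusted p = 0.0004). Those of rpr were 13.3, 8.78, 11.3 and 3.09 CPM in the unlit embryos and 54.7, 61.2, 142 and 32.1 CPM in the lit embryos (log2 change 2.99 ± 0.57, edgeR adjusted p = 0.000422). Those of skl were 4.48, 3.74, 4.01 and 2.62 CPM in the unlit embryos and 21.7, 38.02, 26.5 and 32.9 CPM in the lit embryos (log2 change 2.998 ± 0.58, edgeR adjusted p = 0.000548). No lit embryo overlapped an unlit one in any of the 3. Xrp1, a p53-responsive stress factor gene, rose from 11.4 ± 3.66 to 57.7 ± 33.98 CPM (log2 change 2.33 ± 0.46, edgeR adjusted p = 0.000702), and p53 itself had a log2 change of 0.98 ± 0.28, edgeR adjusted p = 0.0197. The fourth death activator of the cluster, grim, did not pass (log2 change 2.63 ± 1.05, edgeR adjusted p = 0.102).

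Of 13 heat shock genes tested, 1 was higher (7.69%, near the 6.67% of all genes tested). It was Hsp68, from 15.1 ± 6.71 to 51.7 ± 23.3 CPM (log2 change 1.78 ± 0.48, edgeR adjusted p = 0.0111). Its edgeR adjusted p was 0.0563 and 0.0576 without lit replicate 1 and without unlit replicate 3. The near-identical Hsp70 copies, whose reads counting cannot assign with certainty, had log2 changes of -0.13 to 0.85 and none passed. Among 12 genes of oxidative stress and light damage 2 were lower, the regulator genes cnc and Keap1 (log2 changes -2.66 ± 0.54, edgeR adjusted p = 0.000947, and -1.07 ± 0.24, edgeR adjusted p = 0.00316; Keap1 had an adjusted p of 0.0566 with scaling on ribosomal protein genes), and none was higher. None of 86 cytosolic ribosomal protein genes passed in either direction by edgeR, with a median log2 change of -0.06.

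None of 8 pole cell genes passed (edgeR; 1 was lower when only the 8 libraries were fitted), and their summed level was 240.0 to 276 CPM in lit and 259 to 334 CPM in unlit embryos. Of 16 follicle cell and yolk genes 3 could be tested, none passed, and their sum lay between 1.20 and 4.04 CPM in the 8 embryos. Of 7 tested markers of differentiated tissues 1 was lower, the hemocyte gene Hml, with 16.6, 0.153, 18.8 and 20.01 CPM in the unlit embryos and 0.304, 0.264, 0.185 and 0.0816 CPM in the lit embryos (log2 change -6.03 ± 1.64, edgeR adjusted p = 0.0125). One unlit embryo, replicate 2, was within the lit range. The Hml mean in wild type lit in NC13-14 was 0.443 CPM, nearer the lit embryos than the unlit mean of 13.89 CPM. The adjusted p of Hml was 0.108 with limma-voom, and 0.353 and 0.0834 within the first and second range of sample-sheet numbers. The glial gene repo was at 0.0692 CPM in unlit and 0.797 CPM in lit embryos on average, and it did not pass (log2 change 3.33 ± 1.18, edgeR adjusted p = 0.0594). With DESeq2 or limma-voom 1 marker of the list was higher. None was lower with limma-voom, among genes of at least 5 CPM or when only the 8 libraries were fitted. The list's median log2 change was 0.65, and its summed level was 53.5 to 284 CPM in lit and 88.9 to 166 CPM in unlit embryos, with overlap. The part of these cells in the other results was not tested.

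**Figure D4:**
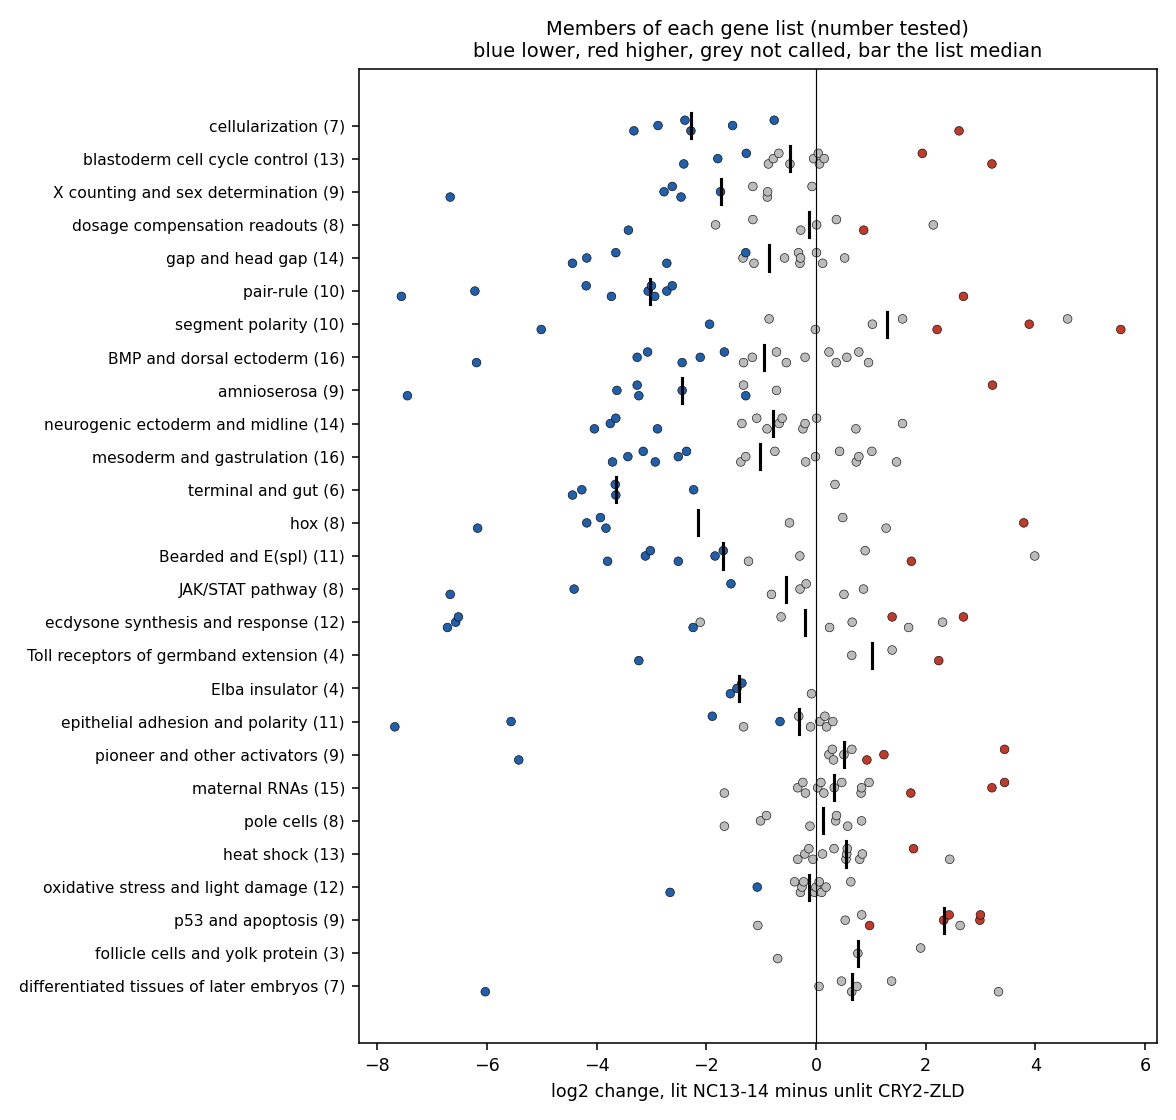
Log2 change of lit NC13-14 against unlit CRY2-ZLD embryos for each tested member of 27 gene lists, with the number tested in parentheses after the list's name and a bar at the list's median. Blue members were lower, red members higher and grey members did not pass; pair-rule, cellularization and terminal genes lie mostly to the left, and p53 and apoptosis genes to the right.

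Reads were counted without strand and reads over exons of more than 1 gene are uncounted by default, so genes that share exon sequence with a neighbour in the annotation are less certain. Among the genes above these were Z600, twi, eve, Nrt, dpn, FER, dib, CycE, twe, lncRNA:roX1, prd, tkv, spo, grh, Clamp, Hsp68, cnc and CG43693.

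The unlit embryos were set beside wild type lit in NC13-14, whose libraries fall in the same ranges of sample-sheet numbers. These wild-type embryos differ from them in genotype and in light at once. Of the genes tested 424 (4.45%) were lower and 340 (3.57%) higher in unlit CRY2-ZLD than in wild type lit in NC13-14 (edgeR). The lower count was 275 without unlit replicate 3 and 280 without wild-type replicate 4, and the higher count 222, 214 and 213 without wild-type replicates 2, 3 and 4. Wild-type replicate 4 was the smallest library, with 4382299 counts and 8.53% of them on nuclear ribosomal RNA genes. Of the 72 genes named by rule that were lower with light, 4 were lower and 1 was higher in unlit CRY2-ZLD than in wild type, and of the 27 that were higher with light, 1 was lower and 1 higher. The calls with light rest on the same unlit libraries. These counts and the changes that follow are therefore not independent of those calls and do not check the unlit reference. Nrt had a log2 change of -0.26, slam -0.71, ftz 0.16, gt -0.13, tld -0.79, sog -0.40, grh 0.50 and sdt -0.23. Lit CRY2-ZLD against lit wild type, which shares the lit libraries with the main comparison, gave -3.14, -3.10, -7.40, -4.32, -6.97, -4.15, -4.92 and -5.79 for the same genes in that order.

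Some named genes already differed between unlit CRY2-ZLD and wild type. Xrp1 was higher in the unlit embryos, 11.4 ± 3.66 CPM against 3.59 ± 0.471 CPM in wild type (log2 change 1.67 ± 0.47, edgeR adjusted p = 0.0216). Its adjusted p was 0.0783 without unlit replicate 3 and 0.0756, 0.0547 and 0.0535 without wild-type replicates 2, 3 and 4, and 0.158 with limma-voom. E(spl)m4-BFM was lower in the unlit embryos than in wild type (log2 change -1.27 ± 0.28, edgeR adjusted p = 0.00298). It stayed past the threshold without any 1 of the 8 embryos, but not with scaling on ribosomal protein genes (-1.05, adjusted p = 0.0820) or within the first range of sample-sheet numbers (-0.58, adjusted p = 0.629). Ac78C was lower too (log2 change -1.25 ± 0.36, edgeR adjusted p = 0.028), with an adjusted p of 0.103, 0.0805, 0.0694 and 0.0673 without unlit replicates 3 and 4 and wild-type replicates 2 and 3 and of 0.150 with scaling on ribosomal protein genes. Elba3, which did not pass between lit and unlit embryos, was lower as well (log2 change -1.33 ± 0.39, edgeR adjusted p = 0.0289). Its adjusted p was 0.0533, 0.116, 0.0902, 0.0761 and 0.0989 without unlit replicates 2, 3 and 4 and wild-type replicates 3 and 4, and 0.140 with scaling on ribosomal protein genes. Xrp1, Ac78C and Elba3 also missed the threshold within the first range of 2 embryos against 2. For tld, which did not pass, the adjusted p was 0.0236 by edgeR when only the groups compared were fitted.

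Light over NC10-14 in the same genotype was compared with light over NC13-14 directly. Of the genes tested 1086 (11.4%) were lower and 683 (7.18%) higher with the shorter window (edgeR). These counts rested largely on 1 embryo, since without NC10-14 replicate 4 they were 445 and 217; the higher count was also 383 without NC10-14 replicate 2 and 427 without lit NC13-14 replicate 2. Maternal RNAs were lower with the shorter window in 8 of 15 members and higher in none. The wild-type means of bcd and twe, given above with the maternal RNAs, were also lower under NC13-14 than under NC10-14 light. The part of the genotype in these differences was not tested. For bcd the NC10-14 embryos gave 228, 151 and 118 CPM, all above the 4 NC13-14 embryos (log2 change -3.62 ± 1.06, edgeR adjusted p = 0.0155; adjusted p = 0.0527 and 0.0537 by edgeR without lit NC13-14 replicates 2 and 3). For twe they gave 331, 384 and 334 CPM, also above them, but the difference did not pass (log2 change -1.09 ± 0.58, edgeR adjusted p = 0.218; adjusted p = 0.0379 with limma-voom and 0.00621 by edgeR when only the groups compared were fitted).

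Nrt, grh and sog were less low with the shorter window, grh and sog not in every fit. Nrt was at 227, 252 and 169 CPM in the NC10-14 embryos, below all NC13-14 embryos (log2 change 1.14 ± 0.22, edgeR adjusted p = 0.000588). The values of grh were 7.57, 1.54 and 1.39 CPM (log2 change 1.24 ± 0.41, edgeR adjusted p = 0.0319) and those of sog 17.2, 16.8 and 10.9 CPM (log2 change 1.32 ± 0.41, edgeR adjusted p = 0.0217). The adjusted p without NC10-14 replicate 2, NC10-14 replicate 4 and lit NC13-14 replicate 2 was 0.207, 0.287 and 0.0745 for grh and 0.0534, 0.180 and 0.133 for sog. It was 0.0708 with limma-voom, 0.301 with scaling on ribosomal protein genes and 0.186 when only the groups compared were fitted for grh, and 0.155 and 0.143 in the first 2 of these for sog. For ftz they were 0.753, 0.280 and 0.146 CPM, for gt 13.3, 11.5 and 11.7 CPM and for sdt 8.56, 3.36 and 9.71 CPM. Their log2 changes were 2.02 ± 0.90, edgeR adjusted p = 0.124, -0.24 ± 0.39, edgeR adjusted p = 0.758, and 0.47 ± 0.45, edgeR adjusted p = 0.544, none of which passed (ftz had an adjusted p of 0.0499 with DESeq2).

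The genes named by their difference between the windows were of other kinds. Lower with the shorter window were the forkhead factor gene foxo, the tetraspanin gene Tsp66E, CG13907 and the Toll ligand gene spz. Their means were 0.972, 0.999, 1.10 and 1.67 CPM with NC13-14 light and 57.5, 53.1, 41.3 and 46.0 CPM with NC10-14 light. For Tsp66E the adjusted p was 0.0881 without NC10-14 replicate 4. Higher with the shorter window were the axon guidance gene gogo, 8.64, 22.9, 5.48 and 10.1 CPM against 0.714, 0.466 and 0.0730 CPM (log2 change 4.82 ± 0.61, edgeR adjusted p = 5.81e-06), CG8960 (log2 change 4.03 ± 0.50, edgeR adjusted p = 3.98e-06) and CG43659 (log2 change 4.40 ± 0.58, edgeR adjusted p = 9.68e-06). Both gogo and CG8960 were nevertheless lower than in unlit embryos (log2 changes -1.51 ± 0.44, edgeR adjusted p = 0.0197, and -1.68 ± 0.39, edgeR adjusted p = 0.00367). The adjusted p of gogo there was 0.0769, 0.0766, 0.0592 and 0.0717 without lit replicates 1, 3 and 4 and unlit replicate 1, and 0.107 with scaling on ribosomal protein genes. The ribosomal pseudogene 28SrRNA-Psi:CR41609, the fourth, rested on lit replicate 4, with 2.60, 0.490, 0.770 and 92.5 CPM in the NC13-14 embryos. Its log2 change of 5.98 ± 1.98, edgeR adjusted p = 0.0329, was 1.72 with an adjusted p of 0.572 without that embryo. The adjusted p was also 0.0769, 0.104 and 0.148 without NC10-14 replicates 1, 2 and 4.

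Comparisons of CRY2-ZLD with wild type under the other 3 light windows share no library with the comparison of lit and unlit embryos, so their calls can be counted against it. Of the 610 lowered genes 313 (51.3%) were also lower in CRY2-ZLD under NC10-14 light, where 7.58% of all tested genes were lower, and they made up 43.4% of the genes lower there. Under NC10-12 light 401 (65.7%) were also lower, against 16.5% of all tested genes, and were 25.6% of those lower there. Under NC14 light 287 (47.0%) were also lower, against 9.65%, and were 31.2% of those lower there. Of the 635 raised genes 87 (13.7%), 447 (70.4%) and 187 (29.4%) were also higher under these windows, against 7.82%, 16.9% and 7.79% of all tested genes, and made up 11.7%, 27.7% and 25.2% of the genes higher there. In all 3 comparisons 164 of the lowered genes (26.9%) and 42 of the raised genes (6.61%) were called the same way. The share of all tested genes called the same way in all 3 was not computed, so these counts have no background beside them.

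The log2 change against wild type of ftz was -8.95 under NC10-14 light, -0.95 under NC10-12 light and -6.44 under NC14 light, and that of gt was -4.85, -0.02 and -2.99. For zen it was -5.47, 1.48 and -2.33, positive in the window that ends before NC13. For mid it was 5.74, 4.76 and 5.203, and for hid 2.06, 1.27 and 3.22. Differences between these windows were not tested.

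Length and chromosome were described without a test. The median summed exon length was 2912 bases in lowered genes, 2977 bases in raised genes and 2039 bases in all genes tested. On the X, 47 of 1635 tested genes (2.87%) were lower and 146 (8.93%) higher, with a median log2 change of 0.20. On the arms of chromosomes 2 and 3 between 6.25% and 8.07% of genes were lower and between 5.44% and 6.63% higher. On chromosome 4, with 91 tested genes, 1 was lower and 13 (14.3%) were higher, with a median log2 change of 0.47.

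**Figure D5:**
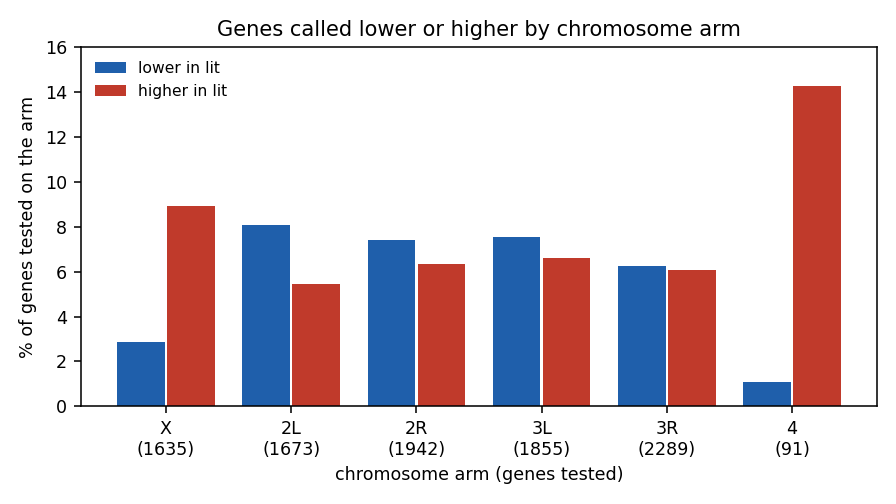
Percentage of the tested genes on each chromosome arm that were lower (blue) or higher (red) in lit NC13-14 than in unlit CRY2-ZLD embryos, with the number tested under each arm. The X has fewer lowered genes (2.87%) than arms 2L to 3R, and the X and chromosome 4 have the most raised genes (8.93% and 14.3%).

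The X value moved with single embryos. The X held 17.68%, 17.28%, 16.24% and 16.53% of the counts in the lit embryos and 14.68%, 14.96%, 15.47% and 17.12% in the unlit ones, where the last is the embryo with high Sxl and low msl-2. The median log2 change on the X was 0.40 among replicates 1 and 2, 0.04 among replicates 3 and 4, and 0.28 without that unlit embryo. The sex of the embryos is not given in the labels and its part in the X values was not tested.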

How the data were processed

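Poly(A) RNA of 34 single embryos in 9 groups was sequenced with the TruSeq v2 kit, per the labels. The deposited table holds raw counts per gene, made by the authors with featureCounts 1.5.3 and annotation release 6.20, per the file headers, and the command recorded there sets neither strandedness nor pairing nor counting of multi-mapped reads. Its exon length column, deposited with the counts, is in bases (other unit) and was used to describe gene length. The submitters' processing notes also name the dm6 build, Trimmomatic 0.36, HISAT2 2.1.0 and DESeq2 1.14.1. Gene symbols came from an Ensembl annotation, which named 17360 of 17491 genes and placed 17237 of them at the same start and end. No genome sequence was used here, so promoter motifs were not searched.

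Genes kept by filterByExpr (minimum count 10 by group) were tested, 9519 of 17491, holding 99.98% of counts. All 34 libraries, of 4382299 to 41210334 counts, were fitted with edgeR 4.0.16 (R 4.3.3; TMM scaling, glmQLFit and glmQLFTest) with 1 coefficient per group. Adjustment (Benjamini-Hochberg) ran over all tested genes, with a threshold of 0.05. The script was tested on simulated counts. CPM values are per library after TMM scaling, given as mean ± SD, log2 changes as estimate ± SE. The floor of 3 counts covers counting error only; the labels name no molecular identifiers, so reads need not be separate molecules. Columns were checked for whole numbers and no 2 libraries were identical; between replicates of the lit or unlit group, chi-square divided by its degrees of freedom was at least 40.06.

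The comparison, the 28 gene lists and the rules for naming genes were chosen with earlier results of these data known. Genes are named from a panel of blastoderm genes, the 12 largest decreases and 10 largest increases of at least 10 CPM whose groups did not overlap, up to 4 members of each list with the smallest p, and 4 genes each way between light windows; further list members are named to account for counts. Alternatives used other scalings, filters, DESeq2 1.42.0, limma-voom (limma 3.58.1), only the groups compared, the replicate number as a block, the range of sample-sheet numbers, stricter thresholds and each replicate left out. The filter of at least 5 CPM applied to the mean over all 34 libraries.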

Additional observations from a re-analysis of the deposited data

Results flagged for a closer look

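Among the genes named, 224 sets of 4 embryos were looked at for a value far from the other 3 of its group (Dixon's ratio), and 19 stood apart, where chance alone is expected to mark about 5% of sets. No explanation of these values was tested.

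Lit replicate 2 stood above the other lit embryos in 7 genes. The first 4 were halo (398 CPM against 221 to 243 CPM in the other 3), twi (140.2 CPM against 88.1 to 95.2 CPM in the other 3), upd1 (1.92 CPM against 0.326 to 0.564 CPM in the other 3) and dap (41.3 CPM against 24.6 to 26.1 CPM in the other 3). The others were ptc (249 CPM against 118 to 137 CPM in the other 3), NetA (7.47 CPM against 2.96 to 3.63 CPM in the other 3) and Socs36E (83.2 CPM against 49.3 to 54.8 CPM in the other 3). In halo, upd1, ptc, NetA and Socs36E, which were lower in lit embryos, this embryo lay nearest the unlit range.

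Lit replicate 4 stood above the others in dunk (46.1 CPM against 27.2 to 28.3 CPM in the other 3), CG43693 (59.9 CPM against 10.4 to 17.6 CPM in the other 3) and 28SrRNA-Psi:CR41609 (92.5 CPM against 0.490 to 2.60 CPM in the other 3), and below them in hid (151 CPM against 328 to 356 CPM in the other 3). It is also the lit library with 0.377% of counts on nuclear ribosomal RNA genes. Lit replicate 1 was high in tor (160.1 CPM against 77.0 to 84.3 CPM in the other 3), and lit replicate 3 low in sc (0.739 CPM against 1.43 to 1.56 CPM in the other 3).

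Unlit replicate 1 was high in smg (130.0 CPM against 75.01 to 82.8 CPM in the other 3), Ocho (113 CPM against 71.0 to 77.0 CPM in the other 3) and hop (128 CPM against 77.7 to 86.0 CPM in the other 3). Unlit replicate 4 was high in Sxl (1071 CPM against 96.3 to 185 CPM in the other 3) and Toll-7 (1.81 CPM against 0.496 to 0.537 CPM in the other 3). Unlit replicate 2 was low in Hml (0.153 CPM against 16.6 to 20.01 CPM in the other 3), a hemocyte gene at a similar level in the other 3 unlit embryos.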

How the results depend on the processing

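Counts below are genes lower and then higher. Lit against unlit CRY2-ZLD (610 and 635) gave 1189 and 890 when only the 8 libraries were fitted, 366 and 441 with scaling on ribosomal protein genes, 343 and 280 at an adjusted p under 0.01, 188 and 69 within the first range of sample-sheet numbers, 379 and 383 within the second, and 395 to 603 and 333 to 614 with 1 replicate left out. NC13-14 against NC10-14 light (1086 and 683) gave 672 and 297 at 0.01, 92 and 138 within the first range, 259 higher with ribosomal protein scaling, and 445 to 1131 and 217 to 861 with 1 replicate left out. Unlit CRY2-ZLD against wild type (424 and 340) gave 868 and 987 with only its 8 libraries, 222 and 164 at 0.01, 74 and 72 within the first range, 271 and 116 within the second, 210 lower with ribosomal protein scaling, and 275 to 420 and 213 to 312 with 1 replicate left out. A stricter threshold and fewer samples call fewer genes by construction, and the cause of the other shifts was not tested. Scaling on ribosomal protein genes moved the median log2 change of all genes by 0.083.

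Calls shared with CRY2-ZLD against wild type under NC10-14, NC10-12 and NC14 light were 208, 190 and 186 lower and 29, 200 and 59 higher at 0.01. They were 184 lower for NC10-14 and 112 higher for NC14 when only the groups compared were fitted, 189 lower for NC10-12 and 181 lower for NC14 with ribosomal protein scaling, and 150 and 288 higher for NC10-14 and NC14 with DESeq2. The other 148 recomputed counts were within 1.5 times the value reported.

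The deviations of same-numbered lit and unlit embryos from their group means had correlations across genes of 0.00759, -0.0637, 0.143 and -0.0839 for replicates 1 to 4. The labels do not say what the numbers stand for, and these few values cannot decide whether they pair the samples. With the replicate block in the fit of all groups the counts were 577 and 572 for lit against unlit, 1006 and 739 for the 2 light windows and 418 and 343 for unlit against wild type. With only the groups compared and the replicate block they were 1044 and 837, 234 and 61, and 675 and 754, and the shared calls were 95 lower and 27 higher for NC10-14, 660 lower for NC10-12 and 58 higher for NC14. In the latter fit of lit against unlit embryos, members lower numbered 7 in the neurogenic ectoderm, 3 in pole cells, 2 in dosage compensation and 1 each in maternal RNAs and p53 genes, and members higher 3 in Toll receptors, 2 each in the BMP and JAK/STAT lists and 1 in the mesoderm.

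Of the single-gene values recomputed, 2695 kept their direction and side of the threshold, 174 fell short of it, 27 passed it newly and 13 changed sign, the last in genes that did not pass. Of 56 list counts, 19 moved by over 1.5 times within the first range and 9 within the second, where fewer embryos were compared. Within the first range the log2 change was 1.22 for Sxl and 0.0498 for sc, and within the second -0.31 for zld and 0.66 for Elba3. Elba3 was 0.0551 with limma-voom, 0.0349 with only the groups compared and the block, and 0.27 without unlit replicate 1, and with 1 replicate left out ranged from -0.33 to 0.27; Sxl ranged from -1.64 to 0.35. Between light windows gt was 0.25 within the first range and sdt -0.26 within the second. Unlit against wild type, gt was 0.0186 with ribosomal protein scaling and 0.0534 within the first range, and sdt 0.0406 within the second.

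Light and Zelda inactivation cannot be told apart in the main comparison, genotype and light differ together between unlit CRY2-ZLD and wild type, and 4 embryos a group limit the precision. Missing the threshold does not show that a gene is equal in both groups. The planned search for CAGGTAG in promoters was not run.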
